A study of Homo sapiens with 12 samples.

Results

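Expression of the genes E2F1, E2F2, E2F7 and E2F8 was followed on 12 arrays of human colorectal cancer cells. The 4 genes were taken as the probe sets that the platform annotation pairs with these symbols. Each symbol had 1 probe set, so all 4 genes are represented among the 14118 named genes tested. The cells were the lines HCT116, SW48 and RKO, each labelled p53 wild type, and 1 group of each line received 10 µM Nutlin-3a for 8 h while the other was left untreated. Nutlin-3a is a small molecule that occupies the p53-binding pocket of MDM2 and so lets p53 accumulate. Each of the 6 groups had 2 arrays. The labels call them duplicates without stating that they were separate cultures, so the tests below measure the spread between these arrays, which may be technical.

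E2F factors switch on the genes that a cell needs to enter S phase. E2F1 and E2F2 are activators: they bind DNA together with a DP partner and are held inactive by the retinoblastoma protein until cyclin-dependent kinases phosphorylate it. E2F7 and E2F8 are atypical members that carry a pair of DNA-binding domains, bind without a DP partner and repress E2F target genes, E2F1 among them. Activators and repressors are themselves E2F target genes, and E2F7 is also known as a direct target of p53. In p53 wild-type epithelial cells, activation of p53 raises the CDK inhibitor p21 and lowers the expression of many E2F targets through the retinoblastoma family and the DREAM complex.

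The arrays differed little within a group: over 37270 probe sets the duplicates had a Pearson correlation of 0.9964 to 0.9974, and the column medians lay between 4.97 and 5.05. The extraction text in the labels names thyroids, although the samples are cell lines, and the growth text names HCT116 alone. The 5 measured thyroid markers averaged between 5.08 and 5.39 on every array, close to the column medians. EPCAM, an adhesion molecule of epithelial cells, averaged 11.02 in Nutlin-3a and 11.02 in untreated HCT116 cells and 11.09 and 11.12 in SW48 cells, but 5.85 and 6.03 in RKO cells. In the same order, the epithelial marker CEACAM5 averaged 4.49 and 4.37 in HCT116, 9.16 and 9.25 in SW48 and 4.44 and 4.67 in RKO cells. KRT20 averaged 5.20 and 5.27, 4.54 and 4.41, and 4.26 and 4.17. These single markers ranked the lines differently, and KRT20 lay near or under the column medians, as did CEACAM5 in HCT116 and RKO cells. The mean of the 8 measured epithelial markers lay between 6.85 and 6.94 on the HCT116 arrays. It lay between 7.56 and 7.59 on the SW48 arrays and between 5.90 and 6.01 on the RKO arrays. None of the 8 epithelial markers passed the limma test for Nutlin-3a in any line. The arrays measured RNA of whole cultures, so fewer cells expressing a gene and less of its RNA per cell cannot be told apart. All levels are log2 signals of a probe set, and levels are compared between samples only, since the signals of different probe sets are not on a common scale.

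The proximal promoters of E2F1, E2F2 and E2F7 were searched for E2F words next to the transcription start. The sequences are the 150 bases before the annotated start in RefSeq on GRCh38.p14, written 5′ to 3′ along the gene, all on the minus strand: E2F1 at chr20:33686386-33686535, E2F2 at chr1:23531234-23531383 and E2F7 at chr12:77065570-77065719. Capitals mark any of the 4 words TTTCCCGC, TTTCGCGC, TTTGCCGC and TTTGGCGC, forms of the consensus bound by E2F and DP, searched on both strands.
E2F1: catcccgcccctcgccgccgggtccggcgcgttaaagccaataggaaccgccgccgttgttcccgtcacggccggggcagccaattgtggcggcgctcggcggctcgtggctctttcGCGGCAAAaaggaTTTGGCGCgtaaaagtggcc
E2F2: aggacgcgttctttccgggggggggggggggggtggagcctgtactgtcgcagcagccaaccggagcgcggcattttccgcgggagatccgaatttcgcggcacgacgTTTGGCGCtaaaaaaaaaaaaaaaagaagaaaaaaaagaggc
E2F7: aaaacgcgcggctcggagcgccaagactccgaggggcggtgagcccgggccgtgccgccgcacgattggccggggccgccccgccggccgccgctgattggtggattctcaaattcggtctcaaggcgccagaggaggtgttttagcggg

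E2F1 held TTTGGCGC from 20 to 13 bases before its start, and TTTGCCGC on the other strand from 33 to 26 bases before it. E2F2 held TTTGGCGC from 42 to 35 bases before its start. None of the 4 words was present in the 250 bases before the start of E2F7, and no match to the p53 half-site was found in that window of E2F1, E2F2 or E2F7. Among all 35116 promoters of the table, 2.79% held at least 1 of the 4 words in the 250 bases before the start, 0.55% held TTTGGCGC, and 5.57% held a p53 half-site. A match describes the letters and does not show binding. Only exact words were counted and near forms were not, so an absent word does not show that a promoter lacks an E2F site. The p53 search was likewise limited to exact matches in these 250 bases, and p53 sites elsewhere in these genes were not examined. No promoter of E2F8 was available to search, so E2F8 is named only, and whether it holds a word was not examined.

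Nutlin-3a moved the 4 genes in opposite directions, and the split did not follow the division into activators and repressors. The repressor gene E2F7 rose in every line, to 171% of the untreated level in HCT116, 158% in SW48 and 172% in RKO cells. The other repressor gene, E2F8, fell with the activator genes, to 62.2% of the untreated level in HCT116, 61.0% in SW48 and 77.9% in RKO cells. E2F1 fell to 68.8% in HCT116 and 54.7% in SW48 cells and did not pass the test in RKO cells. E2F2 fell to 61.5% in HCT116, 67.9% in SW48 and 78.4% in RKO cells. The calls of E2F2 and E2F8 in RKO cells lay close to the threshold, as given below.

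These calls come from limma models of all 12 arrays with p-values adjusted over the 14118 genes by the Benjamini-Hochberg method, at an adjusted p under 0.05. In HCT116 cells 3 of the 4 genes fell and 1 rose, where 5.11% of all genes tested were called, 2.03% falling and 3.08% rising. In SW48 cells 3 fell and 1 rose, where 3.12% of all genes were called, 1.74% falling and 1.38% rising. In RKO cells 2 fell and 1 rose, where 2.02% of all genes were called, 0.793% falling and 1.23% rising. For the mean effect over the 3 lines 3 fell and 1 rose, where 10.8% of all genes were called, 6.44% falling and 4.33% rising. E2F2 and E2F8 were called lower in all 3 lines, as were 0.170% of all genes, and E2F7 was called higher in all 3, as were 0.545%.

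**Figure D1:**
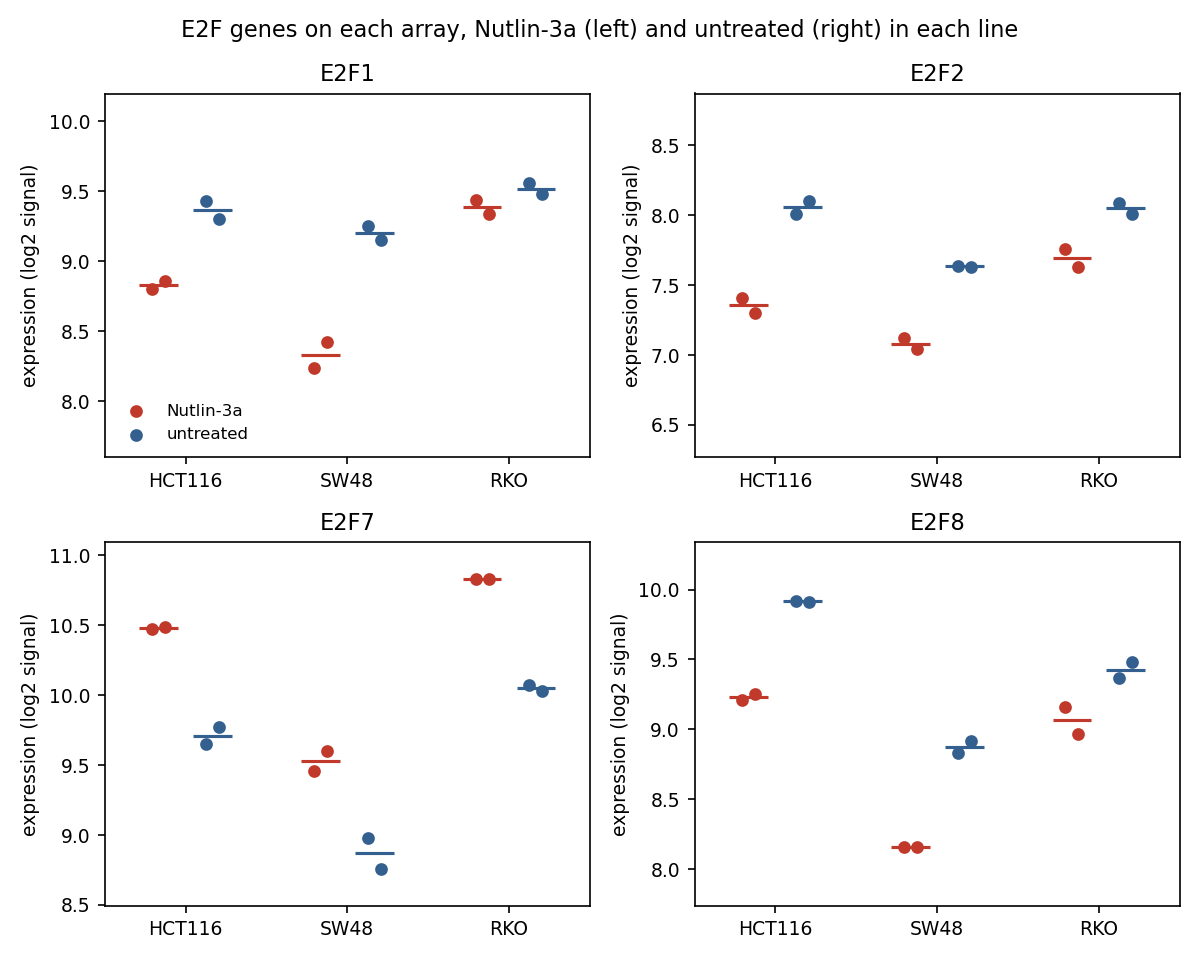
Log2 signal of E2F1, E2F2, E2F7 and E2F8 on each of the 12 arrays, with Nutlin-3a arrays in red to the left of the untreated arrays in blue for each line; short bars are the means of 2 arrays, and every panel spans the same number of log2 units. The red points lie above the blue ones for E2F7 in all 3 lines and below them for the other 3 genes.

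E2F1, the activator gene best known for driving S-phase entry and, in excess, apoptosis, stood at 8.80 and 8.86 in Nutlin-3a-treated HCT116 cells, against 9.43 and 9.30 in untreated ones. Its log2 fold change was -0.54 ± 0.083 (standard error, n = 2 arrays per group; limma adjusted p = 0.00534). Without untreated replicate 1 of HCT116 the adjusted p was 0.0581, and the call was lost. In SW48 cells E2F1 was at 8.24 and 8.42 with Nutlin-3a and at 9.25 and 9.15 without. This change of -0.87 ± 0.083 (limma adjusted p = 0.000339) ranked 7 among the falls of SW48 cells, and neither Nutlin-3a array came within 0.73 of an untreated one. In RKO cells E2F1 measured 9.44 and 9.34 with Nutlin-3a and 9.56 and 9.48 untreated, arrays that stood 0.04 apart at the nearest. The RKO change of -0.13 had a 95% interval from -0.32 to 0.05 (limma adjusted p = 0.468).

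E2F2, the second activator, was at 7.41 and 7.30 in treated HCT116 cells and at 8.01 and 8.10 in untreated ones. The log2 fold change was -0.70 ± 0.073 (limma adjusted p = 0.000485), which ranked 21 among the falls of that line. In SW48 cells the levels were 7.12 and 7.04 with Nutlin-3a, against 7.64 and 7.63 untreated. They differed by -0.56 ± 0.073 (limma adjusted p = 0.00285). In RKO cells E2F2 was at 7.76 and 7.63 with Nutlin-3a, against 8.09 and 8.01 untreated. The treated arrays were lower in each line, and the RKO difference of -0.35 ± 0.073 passed narrowly (limma adjusted p = 0.0428). That RKO call was lost when any 1 of the 12 arrays was left out (adjusted p from 0.0553 to 0.202), and the value then lay between -0.42 and -0.28.

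E2F7, the repressor gene that p53 is known to activate directly, was at 10.47 and 10.49 in treated HCT116 cells, against 9.65 and 9.77 in untreated ones. The log2 fold change was 0.78 ± 0.084 (limma adjusted p = 0.000637). In SW48 cells it was at 9.46 and 9.60 with Nutlin-3a, against 8.98 and 8.76 untreated. This rise of 0.66 ± 0.084 passed the test (limma adjusted p = 0.00249), and missed it when the 4 SW48 arrays were fitted alone (adjusted p = 0.0579). In RKO cells both treated arrays gave 10.83, against 10.07 and 10.03 untreated. The RKO rise of 0.78 ± 0.084 (limma adjusted p = 0.00136) ranked 37 among the rises of RKO cells, 67 in SW48 and 78 in HCT116 cells. Averaged over the lines E2F7 rose by 0.74 ± 0.049 (limma adjusted p = 1.16e-05).

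E2F8, the second atypical repressor, was at 9.21 and 9.25 in treated HCT116 cells and at 9.92 and 9.91 in untreated ones. The log2 fold change was -0.68 ± 0.075 (limma adjusted p = 0.000672). In SW48 cells both treated arrays gave 8.16, against 8.83 and 8.92 untreated. The change was -0.71 ± 0.075 (limma adjusted p = 0.000650) and ranked 18 among the falls. In RKO cells E2F8 was at 9.16 and 8.97 with Nutlin-3a, against 9.37 and 9.48 untreated. The RKO change of -0.36 ± 0.075 passed narrowly (limma adjusted p = 0.0437). Without any 1 of 11 of the 12 arrays that call was lost (adjusted p up to 0.190), with values between -0.46 and -0.26; it was kept without Nutlin-3a replicate 1 of RKO (0.0413). Over the 3 lines the mean change of E2F8 was -0.59 ± 0.043, beside -0.51 ± 0.048 for E2F1 and -0.54 ± 0.042 for E2F2 (limma adjusted p = 2.82e-05, 0.000124 and 3.98e-05).

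The arrays of the 2 treatments did not overlap for any of the 4 genes in any line. Of all genes tested, 51.0% had no overlap in HCT116, 46.8% in SW48 and 46.4% in RKO cells, so with 2 arrays a group this count says little about the members.

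**Figure D2:**
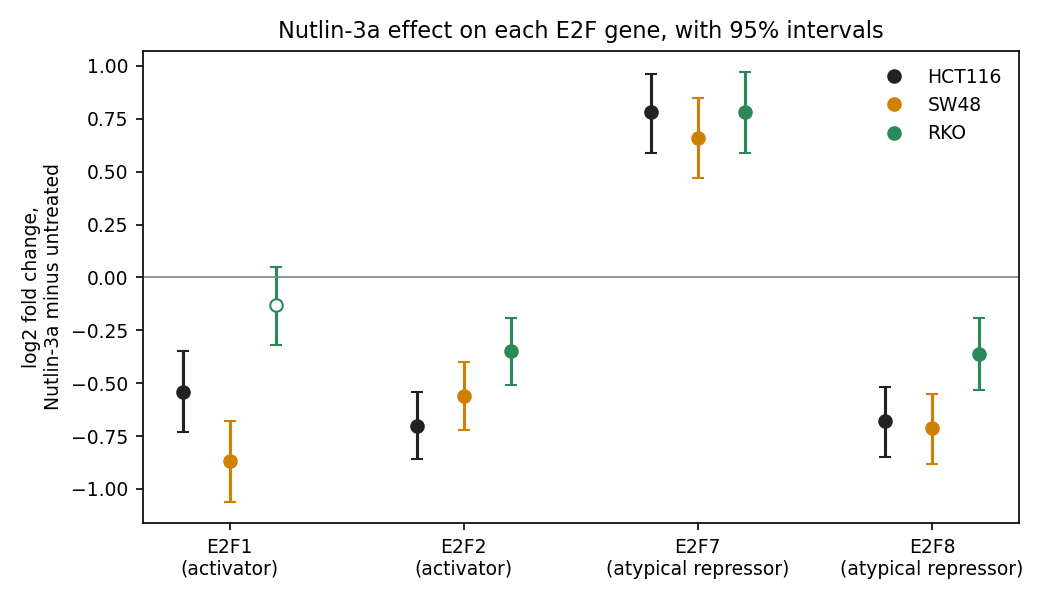
Log2 fold change of each gene, Nutlin-3a minus untreated, in HCT116, SW48 and RKO cells, with 95% intervals from the limma model; a hollow point did not pass the test. E2F7 lies between 0.66 and 0.78, E2F1, E2F2 and E2F8 lie below 0, and the interval of E2F1 in RKO cells reaches 0.05.

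Taking activators and repressors as classes hid the split. The mean log2 fold change of E2F1 and E2F2 was -0.62 in HCT116, -0.71 in SW48 and -0.24 in RKO cells, while that of E2F7 and E2F8 was 0.05, -0.03 and 0.21 in the same lines. Activators minus repressors thus came to -0.67, -0.69 and -0.45. Between the repressor genes, the change of E2F7 exceeded that of E2F8 by 1.46, 1.37 and 1.14 log2 units. The change of E2F8 differed from the activators' mean by -0.06 in HCT116, 0.00 in SW48 and -0.12 in RKO cells. These class values are descriptions with no test. The median change over all genes was between -0.013 and -0.007 in the 3 lines.

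Across arrays, the same grouping appeared in the likeness of the profiles. With each line's own mean subtracted, E2F8 correlated with E2F2 at r = 0.971 and with E2F1 at 0.928 over the 12 arrays, and E2F1 with E2F2 at 0.880. E2F7 correlated with E2F1 at -0.789, with E2F2 at -0.934 and with E2F8 at -0.934. The points share 3 lines and 1 treatment, so these values are no result separate from the treatment differences and carry no test. With the lines left in, E2F7 correlated with E2F1 at 0.193, with E2F2 at 0.0544 and with E2F8 at 0.244.

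The genes most like each member on the line-centred scale had different roles. For E2F7 they were TIGAR, a p53-induced regulator of glycolysis (r = 0.994), the microRNA gene MIR3189 inside GDF15 (0.991) and the zinc finger gene ZNF79 (0.989). TIGAR changed by 1.18, 1.08 and 1.23 in HCT116, SW48 and RKO cells, a rise of similar size in each line, like that of E2F7. For E2F8 they were the mismatch repair gene MSH6 (0.986), the exonuclease gene EXO1 (0.981) and the centromere gene MIS18A (0.978). For E2F2 they were the replication gene GINS3 (0.986), the ephrin gene EFNA3 (0.986) and OBI1, a ubiquitin ligase at replication origins (0.986). For E2F1 they were RANBP3, a cofactor of nuclear export (0.980), PATL1, a factor of mRNA decay (0.980), and DTL, the substrate receptor of a replication-coupled ubiquitin ligase (0.978). RANBP3 changed by only -0.14, -0.20 and -0.04 in HCT116, SW48 and RKO cells, and PATL1 by -0.08, -0.14 and -0.04. Neither gene passed the test for Nutlin-3a in any line, since a high r does not require a large change. On the levels as measured, over the same 12 arrays, the closest to E2F1 were CCNE2 (0.966), MCM8 (0.960) and CLSPN (0.952). The closest to E2F2 were WEE1 (0.976), CCNE1 (0.968) and EZH2 (0.966). The closest to E2F7 were SCRIB (0.977), TRIM32 (0.975) and BAIAP2L1 (0.971), and to E2F8 SUPT16H (0.983), TP73 (0.981) and OBI1 (0.978). Of these, EZH2, BAIAP2L1 and SUPT16H did not pass the test for Nutlin-3a in any line.

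Whether the lines differed in their response was tested for each gene. The rise of E2F7 was of similar measured size in all lines, and the falls of the other 3 genes were smallest in RKO cells, but 1 of the 12 pairwise differences passed (1 of 4 for RKO minus SW48, 0 of 4 for RKO minus HCT116 and 0 of 4 for SW48 minus HCT116, where 0.248% and 0.212% of all genes passed in the last 2). The response of E2F1 in RKO minus that in SW48 cells was 0.74 ± 0.12 (95% interval 0.47 to 1.00; limma adjusted p = 0.0395), a difference called for 0.361% of all genes. The call was lost when any 1 of the 12 arrays was left out (adjusted p from 0.0599 to 0.155), and the F test of equal responses in the 3 lines gave an adjusted p of 0.0610 for E2F1. In that F test 0 of the 4 genes passed, as did 0.503% of all genes. Unadjusted, E2F1, E2F2 and E2F8 had F test p-values of 0.000384, 0.0207 and 0.0141 (limma). For E2F1 the F test passed when genes with a mean under 5 were left out (limma adjusted p = 0.0394), and also when the prior variance followed intensity and was fitted robustly (0.00221).

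None of the other differences passed the test. Their intervals are not adjusted for the number of genes tested, so they do not replace the adjusted p-values. For E2F8 the response of RKO minus HCT116 was 0.32 (95% interval 0.09 to 0.56) and of RKO minus SW48 0.35 (0.12 to 0.59). For E2F2 they were 0.35 (0.12 to 0.58) and 0.21 (-0.02 to 0.44). For E2F1, RKO minus HCT116 was 0.41 (0.14 to 0.67) and SW48 minus HCT116 -0.33 (-0.59 to -0.07). Their limma adjusted p-values over all genes lay between 0.235 and 0.504. SW48 minus HCT116 was 0.14 (-0.09 to 0.37) for E2F2 and -0.03 (-0.27 to 0.21) for E2F8. For E2F7 the differences were -0.11 (-0.38 to 0.15) for SW48 minus HCT116, 0.00 (-0.26 to 0.27) for RKO minus HCT116 and 0.12 (-0.15 to 0.38) for RKO minus SW48. The intervals of E2F7 leave room for differences of up to 0.38 log2 units between lines. The comparisons with RKO share the RKO arrays, so they are not separate evidence.

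**Figure D3:**
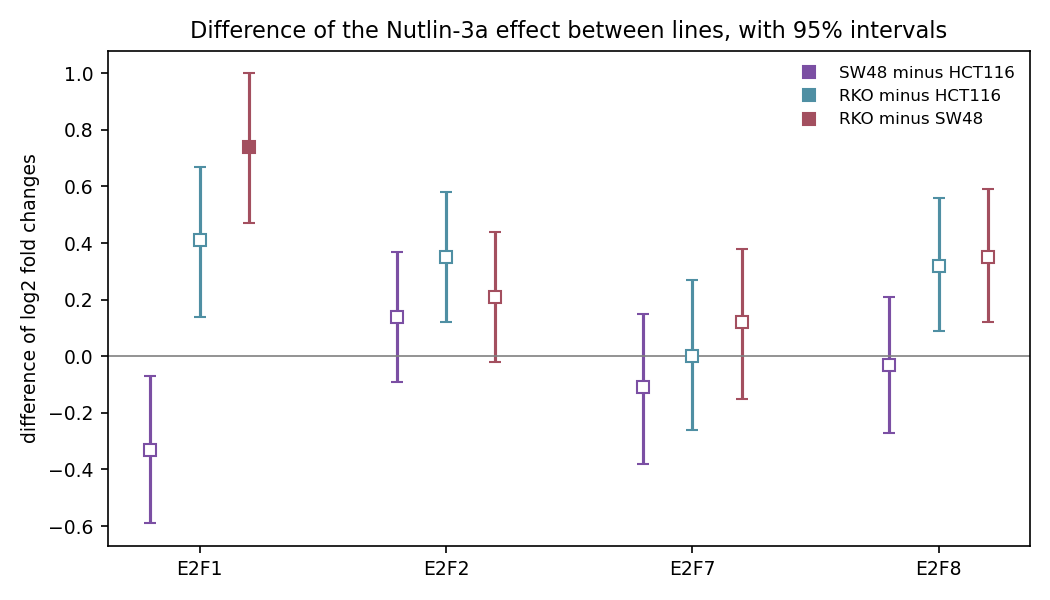
Difference of the Nutlin-3a log2 fold change between pairs of lines for each gene, with 95% intervals from the limma model; the filled square passed the test at an adjusted p under 0.05. The intervals of E2F7 all include 0, and RKO minus SW48 for E2F1 (0.74) is the filled one.

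Before treatment the lines differed in the level of each gene, by the widest margins for E2F7 and E2F8. Of the 4 genes 3 were lower in untreated SW48 than in untreated HCT116 cells, as were 22.1% of all genes. Untreated SW48 cells had less E2F7 and E2F8, by -0.83 ± 0.084 for E2F7 (limma adjusted p = 1.80e-05) and -1.04 ± 0.075 for E2F8 (1.61e-06). RKO minus HCT116 called 1 gene higher and 1 lower, beside 22.4% and 19.0% of all genes. Untreated RKO cells had more E2F7 than untreated HCT116 cells (0.34 ± 0.084, limma adjusted p = 0.00790; 0.0660 without untreated replicate 1 of HCT116) and less E2F8 (-0.49 ± 0.075, 0.000430). RKO cells were higher than SW48 cells for all 4 genes, as for 23.6% of all genes. RKO exceeded SW48 cells by 1.18 ± 0.084 for E2F7 and by 0.55 ± 0.075 for E2F8 (limma adjusted p = 1.47e-06 and 0.000157). So E2F7 was highest in RKO and E2F8 highest in HCT116 cells among the untreated lines.

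For the activators, E2F2 was lower in SW48 than in HCT116 cells (-0.42 ± 0.073, limma adjusted p = 0.000837) and higher in RKO than in SW48 cells (0.41 ± 0.073, 0.000961). RKO and HCT116 cells differed in E2F2 by -0.01, with a 95% interval from -0.17 to 0.16. E2F1 was higher in RKO than in SW48 cells (0.32 ± 0.083, limma adjusted p = 0.00954; lost without untreated replicate 2 of SW48 or untreated replicate 1 of RKO, at up to 0.0684), and its other 2 differences did not pass (0.139 and 0.174). The F test of equal untreated levels passed for all 4 genes (E2F1 at a limma adjusted p of 0.0208, up to 0.107 without either of the same 2 arrays and 0.0535 with the replicate block), as it did for 58.1% of all genes, and the pairwise tests called 44.9%, 41.5% and 44.7% of all genes in SW48 minus HCT116, RKO minus HCT116 and RKO minus SW48. A difference between untreated lines was thus common. The labels name no batch, and a batch that followed the line cannot be told apart from it.

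Set out over all 6 groups, E2F7 was highest in treated RKO cells (10.83 ± 0.0047, SD, n = 2), followed by treated HCT116 (10.48 ± 0.012), untreated RKO (10.05 ± 0.026), untreated HCT116 (9.71 ± 0.085), treated SW48 (9.53 ± 0.098) and untreated SW48 cells (8.87 ± 0.16). The arrays of treated SW48 cells (9.46 and 9.60) and untreated HCT116 cells (9.65 and 9.77) lay close together, and these 2 groups were not compared by a test. E2F8 ran from untreated HCT116 (9.91 ± 0.0030) through untreated RKO (9.42 ± 0.079), treated HCT116 (9.23 ± 0.031), treated RKO (9.07 ± 0.14) and untreated SW48 (8.87 ± 0.061) to treated SW48 cells (8.16 ± 0.0028). E2F1 ran from untreated RKO (9.52 ± 0.055) through treated RKO (9.39 ± 0.072), untreated HCT116 (9.37 ± 0.094), untreated SW48 (9.20 ± 0.072) and treated HCT116 (8.83 ± 0.043) to treated SW48 cells (8.33 ± 0.13), where treated RKO and untreated HCT116 overlapped. E2F2 ran from untreated HCT116 (8.06 ± 0.066) and untreated RKO (8.05 ± 0.054), which overlapped, through treated RKO (7.70 ± 0.095) and untreated SW48 (7.64 ± 0.0060), which also overlapped, to treated HCT116 (7.35 ± 0.075) and treated SW48 cells (7.08 ± 0.060). Treated SW48 cells had the lowest mean for E2F1, E2F2, and E2F8. Neighbours that are neither the treated and untreated cells of 1 line nor a pair of untreated lines were not tested, and a lack of overlap between 2 groups of 2 arrays is common, at 46.4% to 51.0% of all genes between treated and untreated cells.

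Of 7 other listed members of the E2F and DP families 3 had a named probe set, and E2F4, E2F5, E2F6 and TFDP3 did not. In all lists here, measured means having a named probe set. Another 22740 probe sets had no symbol, so a gene that is not counted may still be on the array. The 3 measured ones had smaller mean changes than the 4 genes above. E2F3, the third activator, did not pass in any line and had a mean change of -0.18 ± 0.047 (limma adjusted p = 0.0335), a call lost without any 1 of 9 arrays (up to 0.0858). The DP partner genes TFDP1 and TFDP2 had mean changes of -0.11 and -0.02 and did not pass (limma adjusted p = 0.167 and 0.831). Of the 3 pocket protein genes, RBL1, which encodes p107 and is itself an E2F target, fell in SW48 cells (-0.58 ± 0.067, limma adjusted p = 0.00113) and in HCT116 cells (-0.28 ± 0.067, 0.0462; lost without any 1 of 10 arrays, up to 0.201). Its RKO value was 0.02 ± 0.067, and the 3 responses did not pass the F test (limma adjusted p = 0.0594). RB1, the retinoblastoma gene, had a mean change of 0.10 (limma adjusted p = 0.158), and RBL2, which encodes p130 of the DREAM complex, 0.14 (0.0384; lost without any 1 of 11 arrays, up to 0.0951).

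Of 7 measured MuvB and DREAM partners, 1 fell in HCT116, 2 in SW48 and 0 in RKO cells, and none rose. MYBL2, the MYB protein that replaces the repressor complex in cycling cells, changed by -0.60 in SW48 cells (± 0.052, limma adjusted p = 0.000171) and changed by -0.25 ± 0.052 in HCT116 cells (0.0263; up to 0.153 without any 1 of the 4 HCT116 arrays) and -0.12 in RKO cells (0.279). The other SW48 fall was that of LIN54, the DNA-binding MuvB subunit (-0.30 ± 0.065, limma adjusted p = 0.0413), lost without any 1 of 10 arrays (up to 0.233). Averaged over the lines LIN9, a MuvB subunit, stood at -0.19 (limma adjusted p = 0.0232; lost without any 1 of 8 arrays, up to 0.0632) and FOXM1, an activator of mitotic genes, at -0.14 (0.0186; 0.0522 without untreated replicate 2 of HCT116).

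The cyclin E genes moved with E2F1, E2F2 and E2F8, and these RNA levels do not show which change came first. Of 10 measured G1/S cyclins and kinases, 4 fell in HCT116, 5 in SW48 and 3 in RKO cells, and 0 rose. Without any 1 of the 12 arrays these counts ran from 3 to 4, from 3 to 4 and from 1 to 2. CCNE1, CCNE2 and CDC25A, the phosphatase gene that activates CDK2, fell in all 3 lines. CCNE1 changed by -0.90, -0.67 and -0.47 in HCT116, SW48 and RKO cells, CCNE2 by -0.82, -0.94 and -0.39, and CDC25A by -0.83, -0.60 and -0.38. The RKO calls of CCNE2 and CDC25A were each lost without any 1 of 10 arrays (limma adjusted p up to 0.195 and 0.173). The further falls were CCNA2 in HCT116 and SW48 cells (-0.32 and -0.25) and CDK2 in SW48 cells (-0.26), which were lost without any 1 of 3, 12 and 6 arrays (limma adjusted p up to 0.0953, 0.174 and 0.140). Of the 7 CDK inhibitors listed, only CDKN2A had a named probe set, with a mean change of -0.12 (limma adjusted p = 0.137); CDKN1A, the gene of p21, was not analysed here.

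Among regulators of E2F protein turnover, FBXO5, an E2F target that inhibits the anaphase-promoting complex, fell in HCT116 (-0.64 ± 0.067, limma adjusted p = 0.000553) and SW48 cells (-0.48 ± 0.067, 0.00461) and stood at -0.22 in RKO cells (0.132). CCNF, whose product marks E2F activators for degradation, did not pass in any single line and had a mean change of -0.24 (limma adjusted p = 0.0184; up to 0.0554 when either untreated replicate 2 or Nutlin-3a replicate 1 of HCT116 was omitted). The coactivators of the anaphase-promoting complex, FZR1 and CDC20, had mean changes of -0.01 and -0.09 (limma adjusted p = 0.868 and 0.160).

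Of 35 listed E2F target genes of DNA replication, 23 were measured. In HCT116 cells 14 fell, in SW48 cells 15 and in RKO cells 2, with medians of -0.30, -0.44 and -0.17. Without any 1 of the 12 arrays these counts ran from 7 to 12, from 12 to 15 and from 0 to 2, the lowest HCT116 count being that without its untreated replicate 1. The RKO count depended on the model: 13 fell with an intensity trend and robust prior, 6 among genes with a mean of at least 5, and 0 with the line fitted alone or the replicate block. With each line fitted alone 4 fell in HCT116 and 9 in SW48 cells, and with the replicate block 8 and 15. MCM10, which loads polymerase at origins, changed by -0.63, -0.97 and -0.37 in HCT116, SW48 and RKO cells, and passed in each (limma adjusted p = 0.000311, 3.49e-05 and 0.0154), although the RKO call was lost without any 1 RKO array (up to 0.0965). UHRF1, which maintains DNA methylation behind the fork, changed by -0.46, -0.94 and -0.30, and DTL by -0.64, -0.91 and -0.15, with both passing in HCT116 and SW48 cells. In the F test of equal responses 7 of the 23 passed, where 0.503% of all genes did. Among them was DTL (limma adjusted p = 0.0103), a call lost without untreated replicate 1 of SW48 or untreated replicate 2 of RKO. MCM10 (0.0424) and UHRF1 (0.0378) passed too, and lost the call without any 1 of the 12 arrays. With the replicate block DTL, MCM10 and UHRF1 all lost the call (limma adjusted p = 0.133, 0.212 and 0.202). MCM10 and UHRF1 also lost it with all probe sets tested (0.104 and 0.0862).

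The 3 replication targets called in RKO cells, named after their values were seen, were MCM10, the helicase subunit gene MCM3 (-0.29, limma adjusted p = 0.0301; lost without any 1 of 8 arrays, up to 0.145) and PCNA, the sliding clamp gene. PCNA, also known as a p53 target, rose there by 0.41 ± 0.071 (limma adjusted p = 0.0222; up to 0.107 without untreated replicate 2 or either Nutlin-3a array of RKO) and had changes of 0.26 in HCT116 and 0.22 in SW48 cells that did not pass (0.0650 and 0.144). Of the 23 targets, 20 had a promoter in the table, and 9 of these (45%) held at least 1 of the 4 E2F words searched above. Of all 27305 genes with a promoter there, 3.4% did. The list was made of known E2F targets, so this excess is no separate result. A word was held by 2 of 3 other E2F and DP genes and 1 of 3 pocket protein genes. It was held by 1 of 6 MuvB and DREAM partners, 1 of 6 G1/S genes and 1 of 5 apoptosis genes. Of the turnover genes 0 of 4 held it, and of the p53 arrest and feedback genes 0 of 5.

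**Figure D4:**
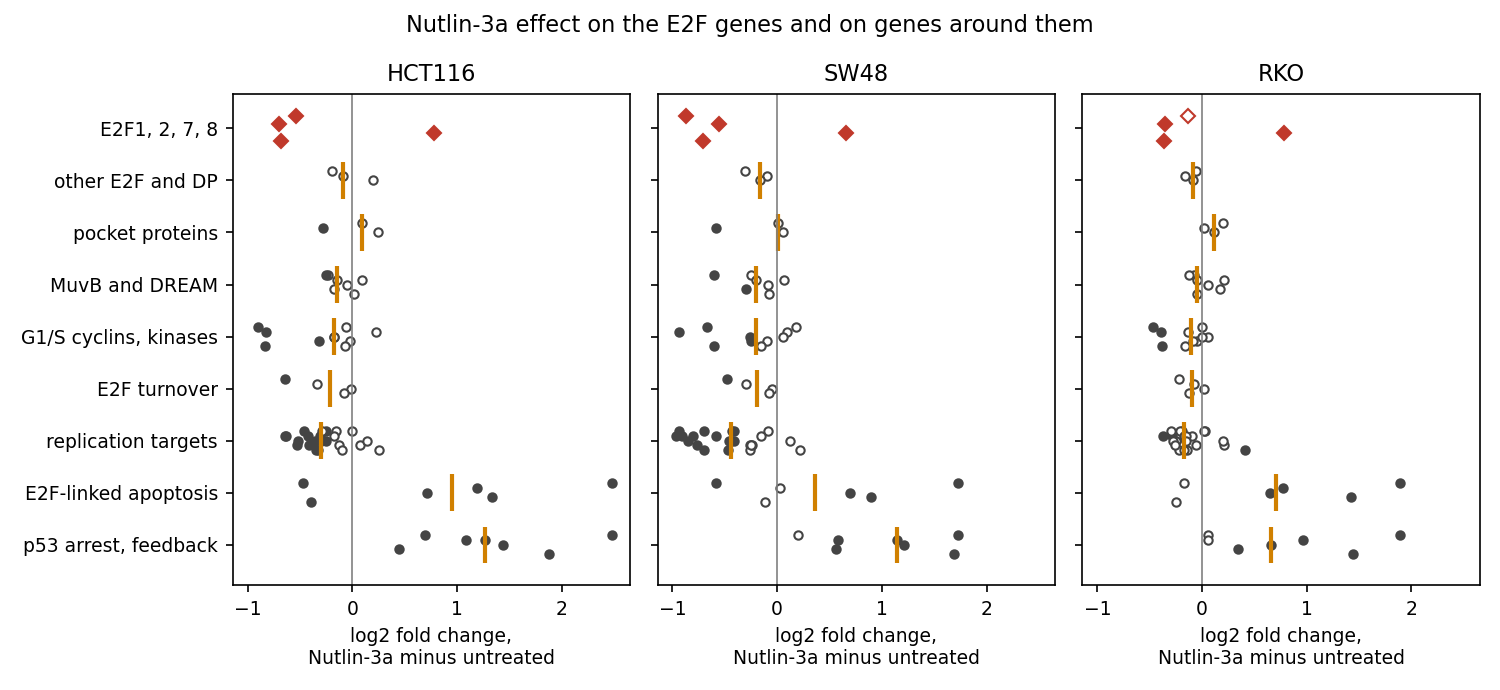
Log2 fold change, Nutlin-3a minus untreated, of the 4 E2F genes (red diamonds) and of genes around them (circles, 1 per gene) in each line; filled symbols passed the test, and orange bars are list medians. In the row of replication targets the medians are -0.30, -0.44 and -0.17 in HCT116, SW48 and RKO cells, and the red diamond to the right of 0 is E2F7.

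E2F7 moved in the direction of the p53 target genes. Of 12 listed p53 arrest and feedback genes 7 were measured, and CDKN1A, BTG2, GADD45A, MDM2 and PPM1D were not among them. Of the 7 measured, 7 rose in HCT116, 6 in SW48 and 5 in RKO cells, and 0 fell. Their medians were 1.27, 1.14 and 0.66, beside 0.78, 0.66 and 0.78 for E2F7. The RKO median includes PLK2, named after its values were seen. PLK2 averaged 4.19 in treated and 4.13 in untreated RKO cells, under the column medians. TP53INP1, a stress protein of the p53 response, changed by 2.48, 1.73 and 1.89 in HCT116, SW48 and RKO cells, and SESN1, an inhibitor of mTORC1 signalling, by 1.88, 1.69 and 1.44. PLK3, a stress-induced kinase, changed by 1.44, 1.21 and 0.66, and its RKO call was lost without any 1 of 3 RKO arrays (limma adjusted p up to 0.0810). Without RKO untreated replicate 1 the RKO count was 3.

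Genes linked to E2F1-driven apoptosis did not move as a block. Of 6 measured, 4 rose and 2 fell in HCT116 cells, 3 rose and 1 fell in SW48 cells, and 4 rose and 0 fell in RKO cells. The risers include TP53INP1, given above, and direct p53 targets. BBC3, which encodes PUMA, changed by 1.33, 0.90 and 1.42 in HCT116, SW48 and RKO cells, and PMAIP1, which encodes NOXA, by 0.71, 0.70 and 0.65. APAF1, the apoptosome gene, rose in HCT116 (1.19) and RKO cells (0.77) and stood at 0.03 in SW48 cells (limma adjusted p = 0.894), a difference between lines that passed the F test (0.00629). With the replicate block the F test of APAF1 did not pass (limma adjusted p = 0.122). TP73, the p53 relative that E2F1 is known to activate, changed in the direction of E2F1, by -0.47 ± 0.073 in HCT116 cells (limma adjusted p = 0.00563; 0.0515 without untreated replicate 2) and -0.58 ± 0.073 in SW48 cells (0.00240), and stood at -0.17 in RKO cells (0.267). The other fall in HCT116 cells was that of BCL2L11, which encodes BIM (-0.39 ± 0.060, limma adjusted p = 0.00517). APAF1, TP73, BCL2L11 and above LIN54, CCNA2 and CDK2 were named after their values were seen.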

How the data were processed

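The 12 RNA samples, 2 for each of 6 groups, were each hybridised to an Affymetrix Human Gene 2.0 ST array. The deposited table gives each probe set a log2 value on every array. Per the submitters' processing notes, GCOS was used. Its version and the background, summarization and normalization steps were not given in sources used here. The log base is inferred from the range of the values, 2.22 to 13.45. The value table held 37270 probe sets, of which 14530 had a single gene symbol in the platform annotation, 0 had several and 22740 had none. All 14530 gene numbers matched RefSeq (GRCh38.p14), and 0 symbols changed. The probe set with the highest mean over the 12 arrays was kept for each symbol, giving 14118 genes, with no filter on dim signal. The table held 0 columns of other samples.

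All 12 arrays entered 1 model of 6 group means in limma 3.58.1 (R 4.3.3) whose variances were moderated by empirical Bayes (residual degrees of freedom 6, prior 3.71). The treatment effect (Nutlin-3a minus untreated) was estimated per line and as a mean, lines were compared for effect and for untreated level, and F tests with 2 degrees of freedom compared all lines at once. The Benjamini-Hochberg adjustment ran over all 14118 genes, and calls needed an adjusted p below 0.05. Fold changes are given with their standard error, levels with their SD. The number of arrays limits the precision. The script was tested on simulated data. The members and gene lists were chosen with earlier results of these data known. From each list of up to 5 measured genes all were named, and from longer lists the 3 with the largest mean change. For each of the 4 E2F genes, the 3 most correlated genes were named, with and without each line's mean subtracted. Exceptions are marked in the text. Alternatives were quantile normalization, centring of arrays, a filter at a mean of 5, averaging of probe sets, all probe sets tested, an intensity trend with a robust prior, each line alone, the replicate number as a block, a threshold of 0.01 and leaving out each array.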

Additional observations from a re-analysis of the deposited data

Results flagged for a closer look

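The response of E2F1 differed between RKO and SW48 cells by a test of the difference itself: RKO minus SW48 was 0.74 ± 0.12 (limma adjusted p = 0.0395). E2F1 changed by -0.87 in SW48 cells and by -0.13 in RKO cells, where the change did not pass the test (limma adjusted p = 0.468). The standard error of this difference draws on the spread within all 6 groups, HCT116 included. In the same comparison 0.361% of all genes were called. The call was lost without any 1 of the 12 arrays (adjusted p from 0.0599 to 0.155), with all probe sets tested (0.0843) and with the replicate number as a block (0.225), while the difference itself stayed between 0.64 and 0.83 when arrays were left out. With 2 arrays in each group, no sample could be tested as standing apart from its group.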

How the results depend on the processing

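No called direction of E2F1, E2F2, E2F7 or E2F8 reversed under any alternative run. Counting each of the 4 genes once per setting, the mean effects over the 3 lines kept their calls in 32 of 32 cases with other settings. Counted in the same way, they kept them in 48 of 48 cases without 1 array. Averaging of probe sets could not move the values of these genes, which have 1 probe set each. The weak calls were those of E2F2 and E2F8 in RKO cells. E2F2 and E2F8 there were -0.31 and -0.33 after quantile normalization (limma adjusted p = 0.0602 and 0.0723), and -0.35 and -0.36 with all probe sets tested (0.0946 for both), with the line fitted alone (0.223 and 0.257) and at a threshold of 0.01. Without 1 array E2F2 ran from -0.42 to -0.28 and E2F8 from -0.46 to -0.26, and E2F1 in HCT116 cells from -0.61 to -0.47. E2F7 in SW48 cells was 0.66 with the line fitted alone (0.0579). The F test of equal responses of E2F1 passed with genes of a mean of at least 5 (0.0394) and with an intensity trend and robust prior (0.00221). The causes were not tested.

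Counts of genes called moved more. In HCT116, SW48 and RKO cells they were 721, 441 and 285, against 1228, 870 and 760 with an intensity trend and robust prior, 208, 115 and 31 with each line alone, and 274, 188 and 84 at 0.01. Without 1 array they ran from 260 to 692, 188 to 394 and 97 to 226. Genes with a mean of at least 5 gave 472 in RKO cells. The mean effect called 1520 genes and 639 at 0.01. The F test of equal responses called 71 genes, 108 with a mean of at least 5, 288 with the trend, 12 at 0.01 and from 15 to 39 without 1 array. That of untreated levels called 8197 genes, and 13836 with all probe sets. The share of calls that were higher moved with scaling: 60.3% in HCT116 cells as deposited, 54.3% after quantile normalization and 72.3% with arrays centred on their median; in SW48 cells 44.2%, 50.8% and 36.2%; in RKO cells 60.7%, 67.7% and 51.2%. Replication targets called lower in RKO cells numbered 2, against 13 with the intensity trend and robust prior, 6 among genes with a mean of at least 5, 1 with all probe sets, and 0 with the line alone or at 0.01.

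Same-numbered arrays did not deviate together (correlations 0.055, -0.039 and -0.055 in HCT116, SW48 and RKO cells), so the numbers were not read as pairs. With the replicate block, E2F2 and E2F8 in RKO cells kept -0.35 and -0.36 but not their calls (0.119 and 0.149). E2F1 also lost its calls in the F test of untreated levels (0.0535) and in RKO minus SW48 for the response (0.225). The block left 0 replication targets, 1 G1/S gene and 3 p53 arrest genes called in RKO cells, against 2 lower, 3 lower and 5 higher without it. With it 357, 218 and 87 genes were called in HCT116, SW48 and RKO cells, 960 for the mean effect and 1 in the F test of equal responses.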
